A study of Mus musculus with 6 samples.

Results

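Collagen chain genes encode the polypeptides that wind round each other into the collagen triple helix. They were taken from the deposited RNA-seq table of neural progenitor cells (NPCs) as every gene whose symbol consists of Col, a number, the letter a and a number. The rule found 38 of the 15095 genes listed. They comprised 11 fibrillar, 6 basement membrane (type IV) and 21 other collagen genes. There were 3 wild-type libraries and 3 Setd2-KO libraries, and both genotypes were differentiated from mouse embryonic stem cells. The methods name HA36CB1 as the stem cell line. All 6 libraries came from cell aggregates grown for 4 days without and 4 days with 5 uM retinoic acid, collected at day 8 and sequenced as polyA RNA. Whether replicate libraries stem from independent differentiations, and whether the knockout line was a single clone, is not stated in the labels. SETD2 is the methyltransferase that places H3K36me3 on the bodies of transcribed genes.

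The only measurement used here is the authors' average log2 CPM (sequenced counts scaled to a common library total) of each gene over all 6 libraries. It mixes both genotypes, so no collagen gene was compared between wild-type and Setd2-KO NPCs, loss of Setd2 could not be checked per library, and the values have no SD, interval or p-value. The depth of the libraries is unknown. Because a long transcript gives more reads than a short one, the log2 of the gene's merged exon length in kb was subtracted, and "level" below is this log2 CPM per kb. In a bulk average, few cells of a type with much RNA and many cells with little RNA cannot be told apart.

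Collagens share a repeat in which glycine, the smallest amino acid, opens each triplet of residues, since only glycine fits into the core of the helix. Fibrillar chains (types I, II, III, V, XI, XXIV and XXVII) have a long helix, and the classical members assemble into banded fibrils. Type IV chains have a helix with many interruptions and form the sheet-like network of basement membranes, such as the one that surrounds the neuroepithelium. The other collagens sit on fibril surfaces, form filaments and anchoring structures, span the cell membrane, or carry large non-helical domains.

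This repeat was visible in the genes themselves. An exon of 54 bases, which codes for 6 triplets, is shown for 4 fibrillar chains that differed widely in level. All are on GRCm39 and written 5′ to 3′ on the coding strand, with the glycine codons that open a triplet in capitals. Each is the first coding exon of that length that opens with a glycine codon and lies in the longest unbroken run of triplets of its gene. Col2a1 exon 10 of 54 lies at chr15:97894370-97894423 (minus strand), Col11a2 exon 13 of 64 at chr17:34270454-34270507 (plus strand), Col1a2 exon 8 of 52 at chr6:4515481-4515534 (plus strand) and Col1a1 exon 8 of 51 at chr11:94830730-94830783 (plus strand).
Col2a1: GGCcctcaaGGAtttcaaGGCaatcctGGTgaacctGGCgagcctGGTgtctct
Col11a2: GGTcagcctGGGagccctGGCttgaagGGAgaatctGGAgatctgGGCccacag
Col1a2: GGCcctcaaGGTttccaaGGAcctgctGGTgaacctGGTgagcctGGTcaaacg
Col1a1: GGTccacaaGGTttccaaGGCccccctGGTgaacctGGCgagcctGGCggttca

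In Col4a1 the repeat is broken. Its exon 21 of 52 holds the stretch at chr8:11285096-11285245 (minus strand, 150 bases), shown because 8 triplets are followed by 2 codons outside the repeat and then by 8 more triplets. Capitals again mark the glycine codons that open a triplet.
Col4a1: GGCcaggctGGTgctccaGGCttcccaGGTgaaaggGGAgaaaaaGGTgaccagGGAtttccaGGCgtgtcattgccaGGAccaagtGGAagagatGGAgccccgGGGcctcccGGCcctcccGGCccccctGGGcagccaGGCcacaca

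The collagen levels in NPCs were led by Col4a1, Col4a2, Col18a1 and Col2a1. Col4a1 and Col4a2, the chains of the most widespread type IV collagen, had levels of 6.94 and 6.48. Col18a1, a basement membrane proteoglycan whose end fragment is endostatin, had a level of 6.40. These values lie at the 98.5, 97.9 and 97.8 percentiles of all genes with a level. These 3 genes together held 77.7% of all collagen CPM, and the 38 collagen genes together took 0.277% of the CPM of the table.

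The next gene was Col2a1, the chain of the type II collagen of cartilage and embryonic notochord, with a level of 4.59 (89.8 percentile). The first 4 genes held 85.8% of collagen CPM, and the same 4 genes came first under every length measure tried, although Col18a1 passed Col4a2 with the length of the canonical transcript. With merged exons the largest step between neighbours in the order lay before Col2a1 (1.82 log2, with 1.62 log2 after it). With canonical, longest and coding length and without length it lay after Col2a1, at 2.24, 2.35, 1.85 and 1.96 log2.

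**Figure D1:**
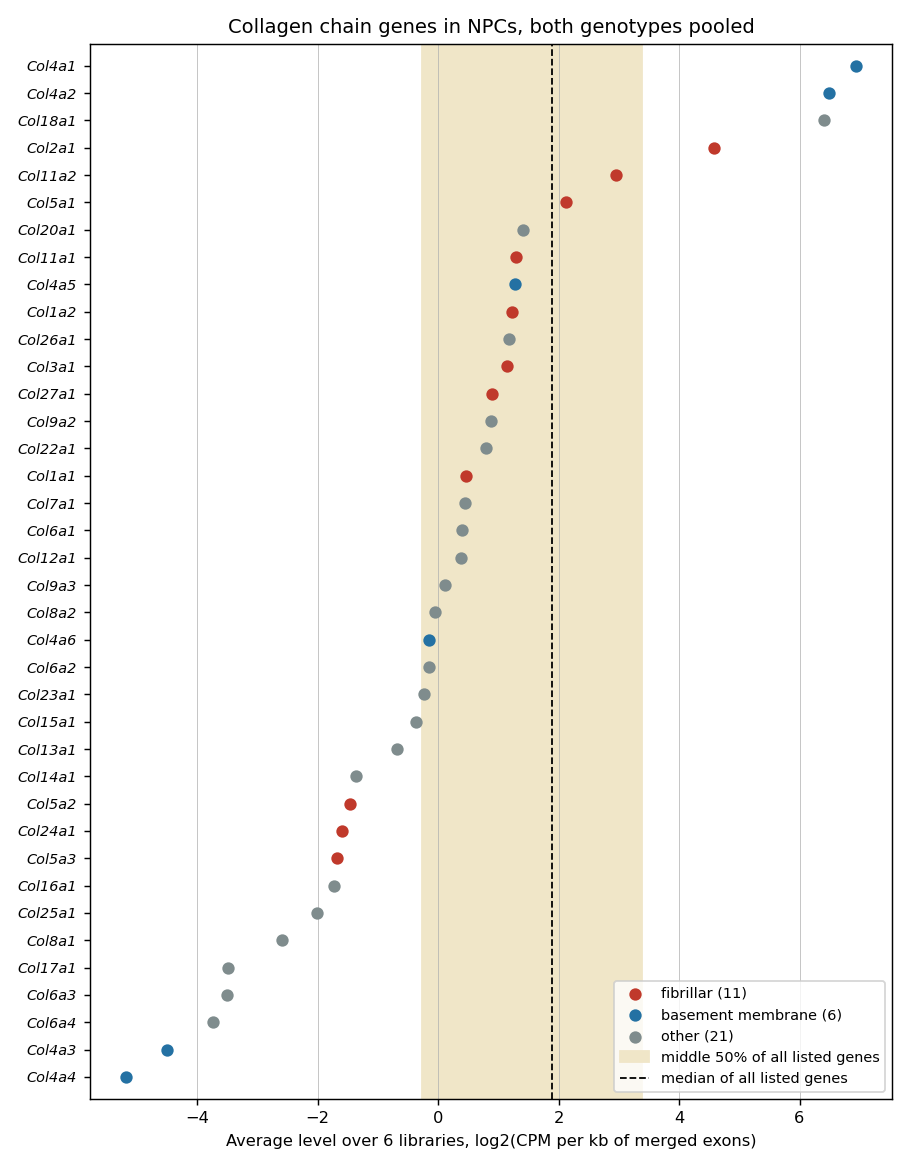
Average level of the 38 collagen chain genes (x axis, log2 CPM per kb of merged exons; y axis, genes in order of level), coloured by class, with the median of all listed genes (dashed line) and their middle 50% (shaded). Col4a1, Col4a2 and Col18a1 lie at 6.40 or more and Col2a1 at 4.59, and 32 of the 38 genes lie below the median of all genes.

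Most collagen genes were low. The median level of the 38 was 0.25, beside 1.89 over 15066 genes with a level, and 6 collagen genes were above and 32 below the median of all genes. Of the 38, 3 were in the highest 10% and 14 in the lowest 25% of all genes. An average log2 CPM under 0, where few reads lie behind the value, was found for 4 collagen genes (10.5%) and for 12.4% of all genes. From Col4a1 to Col4a4 the levels spanned 12.11 log2. The order between close neighbours cannot be judged against replicate error, since no spread is known. Of 37 steps between neighbours, 17 were under 0.1 log2.

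The reference annotation holds 44 genes that fit the same symbol rule, so 6 were not in the table: Col6a5, Col6a6, Col9a1, Col10a1, Col19a1 and Col28a1. All 6 belong to the other class, in which 21 of 27 reference genes were listed, whereas all 11 fibrillar and all 6 type IV genes were listed. The methods describe a filter on low counts before the table was made, and the annotation used in counting may differ from the reference. The part of either in the absence of these genes, or of others not listed, was not tested.

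The fibrillar genes had a median level of 1.15 and ran from -1.68 to 4.59. They held 16.1% of collagen CPM, and 3 of the 11 were above the median of all genes. Col2a1 was followed by Col11a2 (2.96), a chain of the type XI collagen that joins type II collagen in fibrils, and by Col5a1 (2.12), a chain of the type V collagen that starts and limits the growth of type I fibrils. All other fibrillar genes were below the median of all genes. Col1a2 rather than Col5a1 came after Col11a2 with canonical length (2.47 against 2.17) and with longest transcripts and coding length.

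A group of fibrillar genes with middle levels followed. Col11a1, the other classical type XI chain, had a level of 1.29. Col1a2 and Col1a1 form type I collagen, the main collagen of bone, skin and tendon, and had levels of 1.23 and 0.46. Col3a1, the chain of the type III collagen of vessels and soft organs, was at 1.15, and Col27a1, a cartilage collagen with a shorter helix, was at 0.90. The lowest were Col5a2 at -1.45, Col24a1, a type known from bone, at -1.60, and Col5a3 at -1.68.

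The 6 type IV genes held 57.2% of collagen CPM but had a median level of only 0.56, as their levels fell into a high pair and 4 lower genes. Type IV chains assemble in fixed combinations, which pair COL4A1 with COL4A2, COL4A3 with COL4A4 and COL4A5, and COL4A5 with COL4A6. Below Col4a1 and Col4a2 came Col4a5 at 1.28 and Col4a6 at -0.15. Col4a3 and Col4a4, chains of the adult kidney glomerulus, lung and cochlea, were last of all 38 genes at -4.50 and -5.18. Their average log2 CPM was -1.18 and -1.66, among the 4 collagen values under 0.

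The other 21 genes had a median level of -0.15, and with merged exons Col18a1 alone was above the median of all genes. Together they held 26.7% of collagen CPM, of which the multiplexins Col18a1 and Col15a1, both basement membrane collagens with glycosaminoglycan chains, made up 21.8% of all collagen CPM. Col15a1 itself was low, at -0.37.

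The fibril-associated collagens with interrupted helices (FACITs), which bind to the surface of fibrils, had 7 listed members and a median of 0.38. Col20a1, a relative of the tendon collagen genes Col12a1 and Col14a1, led them at 1.41. Col9a2 (0.89) and Col9a3 (0.11) encode chains of the type IX collagen of cartilage, whose remaining chain gene Col9a1 was not listed. Col22a1, a collagen of tissue junctions such as that of muscle and tendon, was at 0.79. Col12a1 was at 0.38, Col14a1 at -1.36 and Col16a1 at -1.73.

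Of the type VI genes, whose chains form beaded filaments, Col6a1 was at 0.39 and Col6a2 at -0.15, whereas Col6a3 (-3.50) and Col6a4 (-3.74) were far lower. The transmembrane collagens were low as well. Col23a1 was at -0.23, Col13a1, which acts at the neuromuscular junction, at -0.68, Col25a1, which is found in amyloid plaques and is needed for motor innervation, at -2.01, and Col17a1, of epithelial hemidesmosomes, at -3.48. The value of Col25a1 turned on the length used: with canonical length it was 0.31, above Col13a1 (-0.12) and Col23a1 (-0.21).

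The short-chain network genes Col8a2 and Col8a1, known from the Descemet membrane of the cornea, were at -0.06 and -2.59. Col7a1, the anchoring fibril collagen that holds epidermis to dermis, was at 0.44. Col26a1, a short collagen first described in testis and ovary, was at 1.17, and at 2.72 with canonical length.

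Chains that assemble into one molecule were in part at like levels and in part far apart. Col4a1 and Col4a2 differed by 1.37-fold in level, with 1.37 to 1.46 over the 5 length measures, and were with merged exons the closest of the 12 pairs examined. Col1a2 was 1.71-fold higher than Col1a1, although type I collagen is usually built with more COL1A1 than COL1A2 chains. With the length of the canonical transcript the ratio was 3.64, so its size turns on the length used while its side does not. Over Col1a2, 1308 bases of exon overlap on the opposite strand with a non-coding gene that was not listed.

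**Figure D2:**
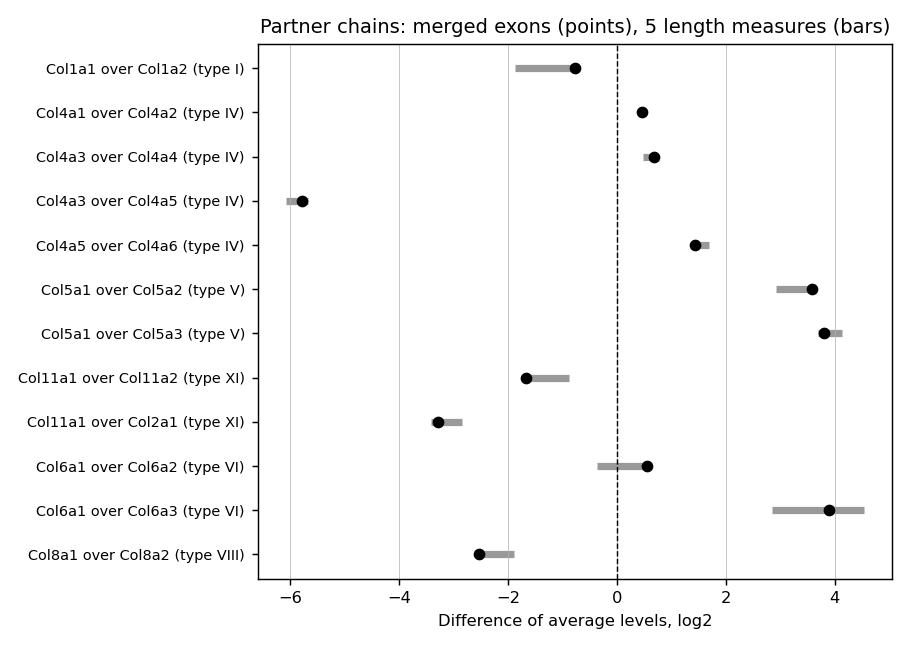
Difference of the average levels of 12 pairs of chains that occur in one type of collagen molecule (x axis, log2, first gene minus second gene; 0 marks equal levels). Points use merged exon length and grey bars span 5 length measures, and the bar crosses 0 only for Col6a1 over Col6a2.

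For type V, Col5a1 was 11.9-fold higher than Col5a2 and 13.9-fold higher than Col5a3. For type XI, Col11a2 was 3.18-fold higher than Col11a1, and Col2a1, whose product also serves as the remaining chain of type XI collagen, was 9.80-fold higher than Col11a1. The Col11a2 ratio fell to 1.83 with coding length. In type VI, Col6a1 was 14.9-fold higher than Col6a3, and this ratio ran from 7.21 to 23.1 over the length measures.

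Col6a1 over Col6a2 was the 1 pair whose side depended on length, with ratios between 0.776 and 1.46. In the minor type IV networks, Col4a5 was 2.71-fold higher than Col4a6 and 55.1-fold higher than Col4a3, and Col4a3 was 1.597-fold higher than Col4a4. Few reads lie behind the values of Col4a3 and Col4a4, with average log2 CPM of -1.18 and -1.66. In type VIII, Col8a2 was 5.78-fold higher than Col8a1.

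Several collagen genes lie next to each other in the genome, some at like and some at unlike levels. On GRCm39, the type IV genes form 3 pairs that point away from each other. Col4a1 (chr8:11248423-11362826, minus strand) and Col4a2 (chr8:11362471-11499287, plus strand) share 311 bases of exon on opposite strands. Col4a4 and Col4a3 on chromosome 1 share 159 such bases, and Col4a6 and Col4a5 on the X chromosome are 1281 bases apart. Partners within each of these pairs differed by 1.37-fold, 1.597-fold and 2.71-fold, while the pairs themselves ranged from the top to the bottom of the order. The 1.597-fold difference of Col4a3 and Col4a4 rests on few reads.

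Col6a2 and Col6a1, 83890 bases apart on the same strand of chromosome 10, differed by 1.46-fold, and Col9a3 and Col20a1, 364252 bases apart on the same strand of chromosome 2, by 2.45-fold. Col6a1 and Col18a1, which lie 325728 bases apart on the same strand of chromosome 10, differed by 64.5-fold. Col3a1 and Col5a2, which point towards each other on chromosome 1 with 16713 bases between them, differed by 6.08-fold. Overlaps with other listed genes concern Col18a1, which shares 896 bases of exon with Slc19a1, and Col9a3, which shares 535 bases with Tcfl5, both on opposite strands. The libraries kept strand, but the sources used here do not give the strand setting of the counting, so reads of these stretches may have been counted for either gene.

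The helix repeat differed between the classes. A run was counted where at least 5 triplets in a row opened with a glycine codon in the canonical coding sequence. All 38 collagen genes had a run of at least 20 triplets, as did 10 other listed genes, which together are 0.328% of 14612 listed genes with a coding sequence. Of the 11 fibrillar genes, 9 had an unbroken run of 337 to 344 triplets, from Col5a3 with 337 to Col3a1 with 344. Col24a1 and Col27a1 had longest runs of 216 and 217.

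**Figure D3:**
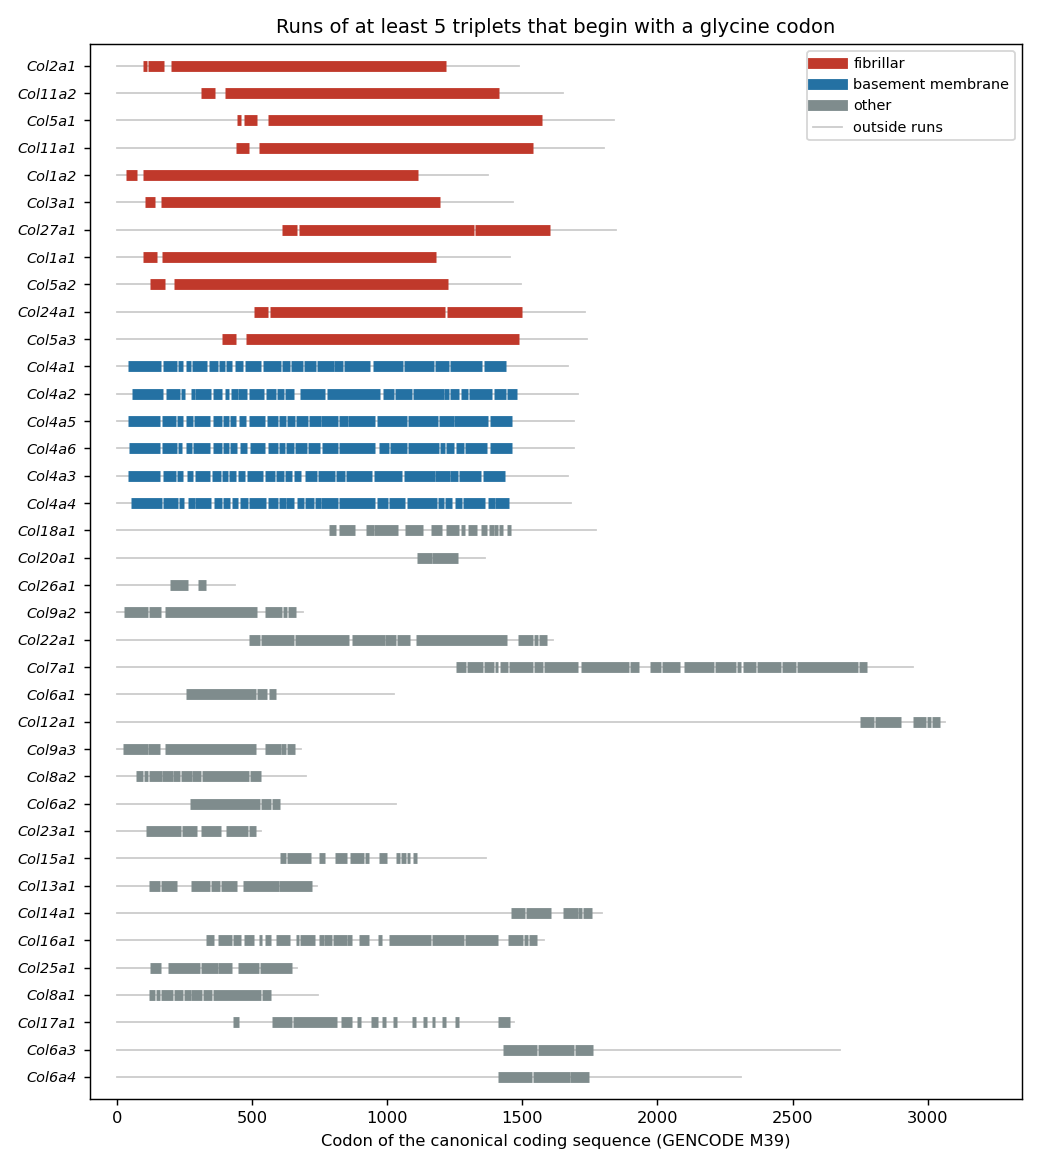
Runs of at least 5 glycine-opened triplets (thick bars) along the canonical coding sequence of each collagen gene (x axis, codon number; y axis, genes by class and level; thin grey lines, codons outside runs). Of the 11 fibrillar genes, 9 show 1 long unbroken block, whereas type IV genes show 22 to 27 short blocks that fill most of the sequence, and other collagens shorter or scattered blocks.

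Type IV genes had more triplets in all, 425 to 444 beside 327 to 364 in fibrillar genes, but spread over 22 to 27 runs, the longest of which had 39 to 66 triplets. Within type IV, Col4a1, the highest gene, had 436 triplets in 22 runs, and Col4a4, the lowest, had 428 triplets in 27 runs. In the other class the longest run was between 23 triplets (Col26a1) and 113 triplets (Col9a2, Col9a3 and Col22a1). Runs covered 28.6% of the codons of Col18a1, and only 8.12% of those of Col12a1, whose large remainder is not helical.

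Exon lengths followed the same division. Exons of 54 bases, such as those printed above, made up 48.8% of the 625 interior coding exons of fibrillar genes, 4.23% of those of type IV genes, 14.1% of those of the other collagens and 0.386% of those of all other listed genes. Lengths that are multiples of 9 bases, which keep whole triplets, made up 84.0%, 47.2%, 56.1% and 13.3%. Outside the fibrillar class, the FACIT genes Col22a1 (45.9%), Col9a2 and Col9a3 (46.7% each) also had shares of 54-base exons in the fibrillar range.

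The 10 other genes with a long run were low, with the exception of Emid1, a secreted protein with a collagen-like stretch, at 3.57. Scara3 and Colec12, scavenger receptor and collectin family members, were at -0.56 and -0.69. C1qtnf5, Colec11, C1qtnf3, C1qtnf9, Colq, Gldn and Scara5 ranged from -2.30 down to -4.76.

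Collagen chains need a set of enzymes and their partner proteins in the endoplasmic reticulum. The median level of the genes of this set was above that of the chains. All 15 genes of hydroxylation and glycosylation were listed, with a median of 3.21, and 10 were above the median of all genes. They were led by P4hb at 6.57, the beta subunit of the prolyl hydroxylase, Ppib at 5.53, a prolyl isomerase, and Colgalt1 at 4.52, which adds galactose to hydroxylysine.

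Of 10 genes of chaperones and export, 9 were listed, with a median of 2.43. Sparc, a secreted collagen-binding protein, was at 6.80, Serpinh1, the collagen chaperone HSP47, at 5.40 and Fkbp10, another prolyl isomerase, at 2.93. Mia3, which helps to load collagen for export, was not listed. P4hb and Ppib also act on many proteins other than collagen.

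In contrast, the 13 genes of propeptide removal and crosslinking had a median of -1.98, and 2 were above the median of all genes. Bmp1, which cleaves the C-propeptide of fibrillar collagens, was at 3.62, and the lysyl oxidase family members Loxl2 and Loxl3 were at 3.42 and 1.83. Other members of this family were lower, with Loxl1 at 1.39, Loxl4 at -3.20 and Lox at -3.33. The remaining genes of propeptide removal were also below Bmp1, with Pcolce at 1.62, Adamts3 at -0.94 and Tll1 at -1.98. Pcolce2, Adamts2, Adamts14 and Tll2 were at -2.26, -2.29, -2.75 and -3.70. Of 10 receptor genes, 8 were listed, with a median of -0.996. The receptor tyrosine kinase Ddr1 was at 5.85, the integrin beta1 chain Itgb1 at 5.59 and the endocytic receptor Mrc2 at 1.45. The integrin alpha chain genes Itga10, Itga2, Itga11 and Itga1 were lower, at 0.35, -2.34, -3.82 and -5.12, and Ddr2 was at -3.02. The receptors of platelets and leukocytes, Gp6 and Lair1, were not listed.

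Of 9 genes of collagen breakdown and its inhibitors, 7 were listed, with a median of 1.38, the value of the inhibitor Timp1. They were led by the gelatinase Mmp2 at 3.92, the inhibitor Timp2 at 3.44 and the membrane protease Mmp14 at 2.70. Only these 3 were above the median of all genes. Timp3 was at 1.04, and the proteases Ctsk and Mmp9 were low, at -1.18 and -1.71. The collagenases Mmp8 and Mmp13 were not listed.

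**Figure D4:**
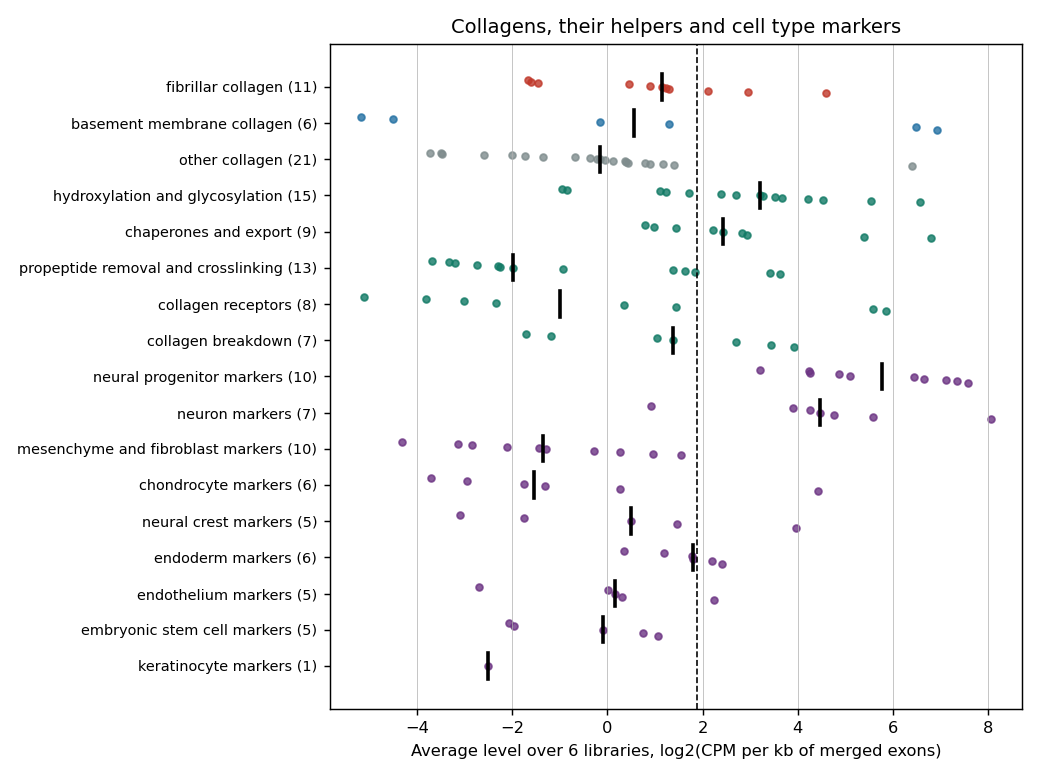
Average level (x axis, log2 CPM per kb of merged exons) of each listed member (points) of the collagen classes, of genes that make, bind or degrade collagen, and of cell type markers, with the median of each list (black tick) and of all listed genes (dashed line); numbers in brackets count listed members. Neural progenitor and neuron markers have the highest medians, 5.77 and 4.47, and mesenchyme and chondrocyte markers medians of -1.37 and -1.54.

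Markers of other cells that make collagen were read in the same average. Neural progenitor markers, 10 of 11 listed, had a median of 5.77, with Vim (7.57), Sox3 (7.34) and Hes5 (7.12) highest and Sox1 not listed. All 7 neuron markers were listed, with a median of 4.47 and Tubb3 (8.06), Elavl3 (5.59) and Stmn2 (4.77) highest. The label of neural progenitor cells is thus matched by their listed markers, all 10 of which were above the median of all genes. Of the 7 neuron markers, 6 were above it as well, and Rbfox3 was below it at 0.91.

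Mesenchyme and fibroblast markers, 10 of 11 listed, had a median of -1.37 and none above the median of all genes. Twist1 (1.55), Fbn1 (0.96) and Pdgfra (0.27) were highest, and Dpt was not listed. Chondrocyte markers, 6 of 8 listed, had a median of -1.54. Sox9, which is also a neural progenitor gene, was at 4.43, Cnmd at 0.26 and Matn3 at -1.31, and Matn1 and Snorc were not listed.

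The 6 endoderm markers, which include genes of the extraembryonic endoderm that lays down much type IV collagen in the embryo, were all listed, with a median of 1.79. Sox17 (2.41), Gata4 (2.19) and Foxa2 (1.80) were highest, and 2 of the 6 were above the median of all genes. The 5 endothelium markers had a median of 0.15, with Cdh5 (2.25), Kdr (0.30) and Pecam1 (0.15) highest. Emcn (0.02) and Tek (-2.69) were lower, and Cdh5 alone was above the median of all genes. The 5 neural crest markers had a median of 0.49, with Foxd3 (3.95), Tfap2a (1.46) and Ets1 (0.49) highest. Snai2 and Sox10 were low, at -1.75 and -3.11, and the paper counts Foxd3 among its neuronal markers.

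The 5 embryonic stem cell markers had a median of -0.10, with Dppa5a (1.06), Pou5f1 (0.75) and Esrrb (-0.10) highest. Zfp42 (-1.96) and Nanog (-2.07) were lower, and none of the 5 was above the median of all genes. Of 3 keratinocyte markers only Krt14 was listed, at -2.52, and Krt5 and Trp63 were not. Which cells of the aggregates gave rise to Col4a1, Col4a2, Col18a1 or Col2a1 reads was not tested.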

How the data were processed

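The authors sequenced strand-specific libraries of polyA RNA from NPCs, 3 per genotype. The deposited table holds 1 average log2 CPM per gene over the 6 libraries, made by the authors with edgeR after a filter on low counts and TMM normalization. Its 4 further columns of numbers hold the authors' fold changes, p-values and FDR between genotypes, and were not used. No values per library were used. According to the submitters' processing notes, Trim Galore, STAR, edgeR and the build NCBIM37 (mm9) were used; Salmon, GRCm39 and GENCODE M35 stand in the methods instead. Gene IDs were matched without version to GENCODE M39 on GRCm39 (15066 of 15095 found), which supplied lengths, positions and coding sequences and may differ from the annotation used in counting. Powers of 2 of the average log2 CPM summed to 1.00058e+06.

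Levels were average log2 CPM minus log2 of merged exon length in kb. Percentiles were taken over all genes with a level. Glycine-opened triplets were counted as GGN codons in coding sequences, since no protein sequences were given, although proteins had been planned. The run count and the percentile were tested on simulated data. All listed collagen genes were named, and of each other list the 3 highest members and those not listed. The 10 non-collagen genes with a long run, Slc19a1, Tcfl5, Snai2, Sox10 and Rbfox3 were named beside this rule. So were the remaining listed genes of collagen receptors, collagen breakdown, propeptide removal and crosslinking, and endothelium and embryonic stem cell markers. Members and lists were chosen with earlier results of these data known. No test was run. Python 3.11.15, numpy 2.4.6, pandas 2.3.3 and matplotlib 3.10.9 were used.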

Additional observations from a re-analysis of the deposited data

How the results depend on the processing

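No paired analysis was possible because the table holds 1 average over all 6 libraries, so no library could be left out either. Another length measure moves all genes, so values are read against the median of all genes, which was 1.89 with merged exons, 2.77 with canonical transcripts, 2.45 with longest transcripts, 4.03 with coding length and 4.57 without length. The number of collagen genes above it was 6, 5, 6, 4 and 9, and the collagen median was below it each time. Col5a1 was above it with merged exons and without length only, and Col26a1 with longest transcripts only (2.71 against 2.45). The collagen median was 1.195 with coding length and 2.89 without length. The fibrillar median was 2.02 (canonical), 2.01 (longest), 2.36 (coding) and 4.599 (no length). For type IV it was 1.33 (coding), 3.67 (no length) and 3.88 with the 4 collagen genes under 0 log2 CPM left out, which removes Col4a3 and Col4a4. For the other class it was 1.09 (coding) and 2.34 (no length).

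The log2 ratio of Col1a1 over Col1a2 was -1.86 (canonical), -1.84 (longest), -1.86 (coding) and -1.72 (no length), and that of Col5a1 over Col5a2 was 2.92 (coding). Col11a1 over Col11a2 gave -1.06 (longest), -0.87 (coding) and -0.88 (no length). Col6a1 over Col6a2 changed side, with -0.24 (longest), -0.35 (coding) and -0.37 (no length). Col6a1 over Col6a3 gave 4.53 (coding) and 2.85 (no length), and Col8a1 over Col8a2 gave -1.90 (no length). With interruptions of up to 5 codons bridged, the median longest run was 145.5 triplets in type IV (43.5 unbridged) and 100 in the other class (45 unbridged). With canonical length, medians were 3.34 for chaperones and export, -0.95 for propeptide removal, 2.45 for breakdown, 0.0489 for mesenchyme, 1.23 for neural crest, 1.35 for endothelium and 0.56 for stem cell markers. Of the 38 single levels, 10 moved by over 1.5 times with canonical length, 9 with longest transcripts, 25 with coding length and 38 without length. Between 25 and 28 genes changed rank under each measure, by at most 10 places (Col25a1, canonical). The first 6 genes were the same without length only, as Col26a1 replaced Col5a1 under the other 3 measures. Depth and replicate spread are unknown, so no difference could be set against error.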
